A study of Mus musculus with 14 samples.

Results

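The lysosome is the acidic compartment in which cells break down proteins, glycans, lipids and nucleic acids taken up from outside or delivered by autophagy. Its soluble hydrolases work at low pH, which a proton pump in its membrane maintains, and heavily glycosylated membrane proteins line and protect that membrane. In fat, macrophages that clear dying adipocytes and take up their lipid are known to be rich in lysosomes. The genes described here are 42 genes for lysosomal enzymes and membrane proteins, chosen by gene symbol with earlier results of these data known. All 42 were found among the 23282 genes of the count table. By role they comprise 11 proteases, 8 glycosidases, 7 other soluble proteins (lipid enzymes and their activators, phosphatases and related proteins), 9 membrane proteins, 5 genes of the proton pump, and Tfeb and Tfec, transcription factors of the family that controls lysosomal genes.

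RNA was measured in 14 libraries of epididymal white adipose tissue, the visceral fat pad attached to the epididymis, by QuantSeq 3′ sequencing, which reads the ends of polyadenylated transcripts. The mice were male wild type C57BL/6J animals, bought at 4 weeks of age and kept for 20 weeks on a normal (control) diet or on the Western diet (WD), a diet rich in saturated fat with added cholesterol. Batch 1 holds 4 control libraries (replicates 1 to 4) and 5 WD libraries (replicates 1 to 5), and batch 2 holds 5 control libraries (replicates 5 to 9). Since all 5 WD libraries belong to batch 1, diet and batch cannot be told apart when the WD group is set against the batch 2 controls. The labels number the libraries within a diet without naming the mouse behind each, so p-values measure the spread between these libraries.

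Total counts ranged from 10278970 to 13712254 per library, and the 42 genes together took between 0.542% (control replicate 1) and 1.48% (WD replicate 3) of them. Control replicate 4 had counts on 7999 genes, against 10903 to 13780 in the other 13 libraries. Control replicate 1 carried genes of the epididymis, which took 14.3% of its counts and at most 0.00537% of any other library. Adipocyte markers defined the tissue in 13 libraries (summed level 32066 to 77080 CPM) and were lower in control replicate 1 (6748 CPM). In the WD group, replicate 2 stood apart for several genes named below. Counts of called genes, and fold changes of several but not all genes in which one of these libraries stood out, are also given without it.

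Tfeb and its relatives bind a short palindrome that is found before many lysosomal genes. Promoter sequences, 250 bases before to 50 bases after the start site, were taken from RefSeq (GRCm38.p6) for 38 of the 42 genes. RefSeq gives some genes several start sites (48 windows for the 38 genes), and a gene was counted when any of its windows held the letters. No window was matched for Ctsb, Ctsh, Asah1 and Atp6v1b2. The 8 letters TCACGTGA, which read the same on both strands and contain the shorter CACGTG, were found for 7 of the 38 genes (18.4%), against 8 of 54 other lysosomal genes with a promoter (14.8%) and 1.12% of all 27025 genes with a promoter. The shorter CACGTG was found for 12 of the 38 (31.6%), 16 of the 54 (29.6%) and 8.09% of all, so the members' shares were close to those of the other lysosomal genes. The stretches that hold the 8 letters are shown because these 7 genes share them. They are written 5′ to 3′ on the strand of the gene, in lower case with the 8 letters in capitals:

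Ctsd: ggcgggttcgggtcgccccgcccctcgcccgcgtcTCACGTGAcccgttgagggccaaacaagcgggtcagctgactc

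Ctsa, before the start site of an inner transcript: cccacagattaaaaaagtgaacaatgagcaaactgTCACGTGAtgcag

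Ctsa, at the start site of the same transcript: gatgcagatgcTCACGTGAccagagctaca

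Gla: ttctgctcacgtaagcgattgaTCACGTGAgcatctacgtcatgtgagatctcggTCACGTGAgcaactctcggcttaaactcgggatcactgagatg

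Cln3: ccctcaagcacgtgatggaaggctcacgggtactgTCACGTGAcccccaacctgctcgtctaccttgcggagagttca

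Mcoln1: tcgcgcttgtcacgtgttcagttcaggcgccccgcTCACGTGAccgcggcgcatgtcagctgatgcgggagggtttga

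Atp6v1a: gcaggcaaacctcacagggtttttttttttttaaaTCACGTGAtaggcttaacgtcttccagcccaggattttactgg

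Atp6v0d1: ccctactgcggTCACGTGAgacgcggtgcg

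In GRCm38.p6 these windows lie at chr7:142387884-142387961 on the minus strand (Ctsd), chr2:164833725-164833772 and chr2:164833766-164833795 on the plus strand (Ctsa), chrX:134601158-134601255 on the minus strand (Gla), chr7:126583316-126583393 on the minus strand (Cln3), chr8:3500438-3500515 on the plus strand (Mcoln1), chr16:44139349-44139426 on the minus strand (Atp6v1a) and chr8:105566050-105566079 on the minus strand (Atp6v0d1). The matches at the start sites of Ctsa and Atp6v0d1 are shown with 11 bases on each side, and the others lie before the start site to which the RefSeq window belongs. For Ctsa and Cln3 that is an inner start site, so these windows lie inside the gene as the deposited table's annotation draws it. Gla held 2 matches in the same window. A match is a description of these letters and not of binding. Of the 7 genes, Ctsd, Ctsa and Gla rose in the WD group against the batch 2 controls, and Cln3, Mcoln1, Atp6v1a and Atp6v0d1 had FDRs above 0.05 there (values under each role). Differences among the 7 were not tested.

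Against the batch 1 controls, most of the 42 genes were higher in the WD group, but none passed the test. Of 41 genes that passed the filter on low counts, 36 had a log2 fold change above 0, where 51.8% of the 12157 tested genes did, and the median was 0.53 against 0.03 for all tested genes. In edgeR's quasi-likelihood test with Benjamini-Hochberg adjustment over all tested genes, 0 of 41 had an FDR under 0.05, and the share among all tested genes was 0% as well. At an unadjusted p under 0.05 stood 11 of 41 genes, all higher in the WD group, against 3.34% of all tested genes that were higher at this p. For 5 genes (Gusb, Hexa, Laptm5, Ctsz and Ctsd) every WD library lay above every batch 1 control, against 3.01% of all tested genes. limma-voom also called 0, whereas DESeq2 called 2, Ctsd and Ctsz, with 0.955% of its genes called.

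These counts depended on control replicate 4. It was the highest of the 9 controls for 22 of the 42 genes, against 17% of the other 13212 genes with a mean of at least 1 CPM. Without it, 5 genes passed the test in batch 1 (Ctss, Gusb, Psap, Laptm5 and Ctsa) with 0.442% of all tested genes, and the median log2 fold change was 0.86. Without control replicates 1 and 4 together, 6 passed (the same 5 and Hexa) with 0.921% of all tested genes, and the median was 1.08.

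Against the batch 2 controls, 19 of 40 tested genes rose in the WD group and 1, Acp5, fell, where 6.55% of all 12070 tested genes were called (3.99% higher and 2.56% lower). The median log2 fold change of the 40 genes was 0.88, against -0.0034 for all tested genes, and 37 were above 0 (49.8% of all tested genes). Every WD library lay above every batch 2 control for 16 genes, against 4.92% of all tested genes. By role, 9 of 11 proteases rose, as did 4 of 7 tested glycosidases, 4 of 7 other soluble proteins, 2 of 9 membrane proteins, 0 of 5 proton pump genes and 0 of 1 tested transcription factor. Of the 19 that rose, Ctss, Ctsk, Grn and Cd68 are on a list of WD-raised genes that the study chose on these libraries. The 42 genes were chosen with earlier results of these data known. The counts in each comparison therefore describe the genes and are not a test of them as a group.

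Against all 9 controls, 6 of 41 tested genes rose (Ctsd, Hexa, Ctsz, Ctsa, Laptm5 and Gusb) and 0 fell, where 0.569% of 12653 tested genes were called (0.466% higher). The median log2 fold change was 0.68, against -0.04 for all tested genes. For 5 of the 41 (Ctsd, Ctsz, Hexa, Gusb and Laptm5) every WD library lay above all 9 controls. The share of all tested genes that did so is not given here. It was 3.01% against the batch 1 controls and 4.92% against the batch 2 controls, each taken alone. DESeq2 called 12, with 3.37% of its genes called, and limma-voom 10, with 1.76%. The count was 11 without control replicate 1, 16 without control replicate 4 and 20 without both, with 1.62%, 2.29% and 5.08% of all tested genes called. The 3 comparisons share the 5 WD libraries and, in part, the controls.

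**Figure D1:**
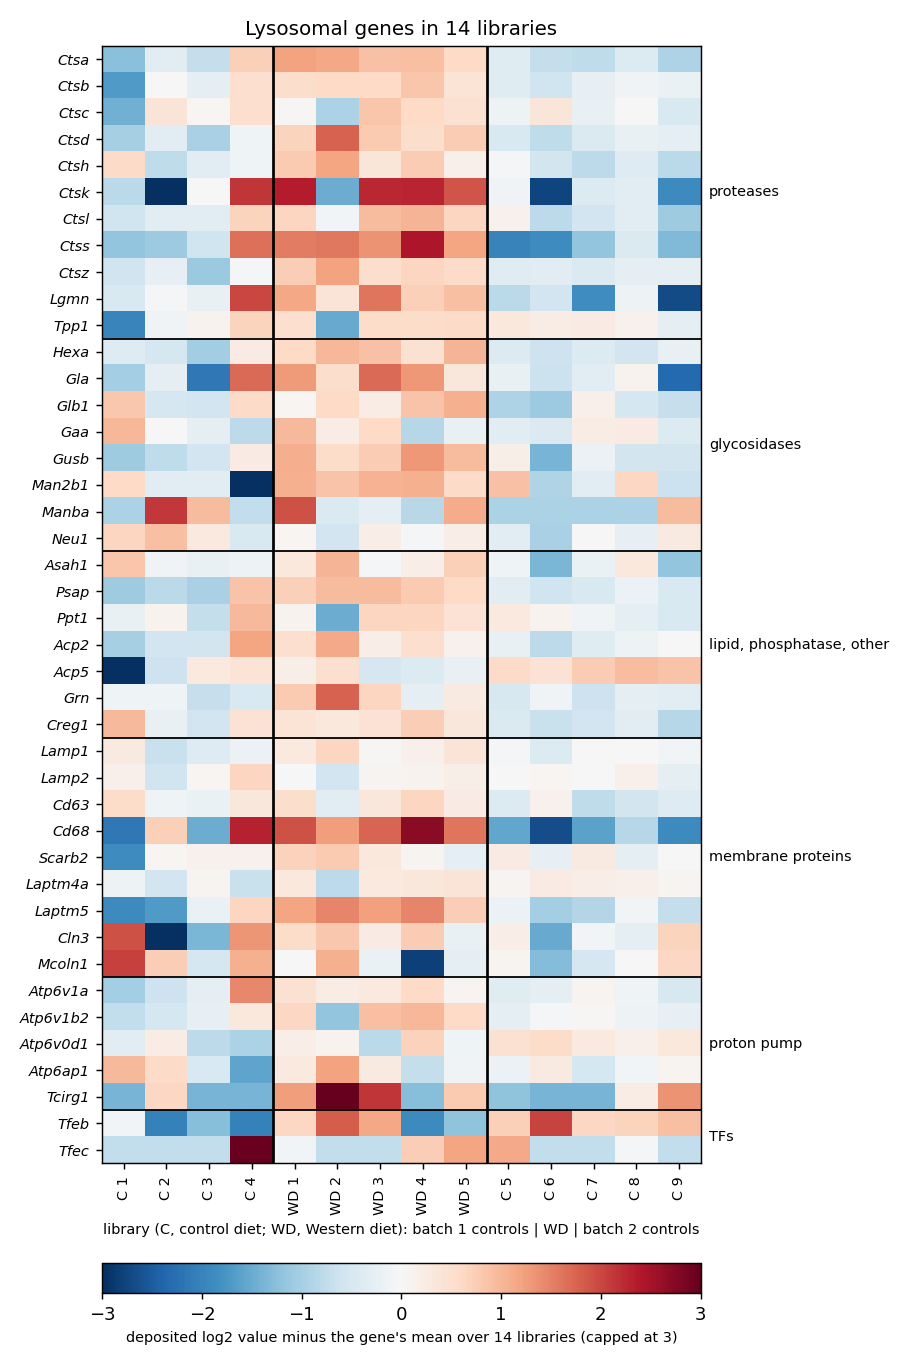
Each row is one of the 42 genes, by role, and each column one of the 14 libraries, with the deposited log2 value less the mean of the gene over the 14 libraries as colour (red above, blue below, capped at 3). Most protease and glycosidase rows are red across the 5 WD columns, and control replicate 4 (C 4) is red for Ctss, Ctsk, Lgmn, Gla, Psap and Cd68.

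Most macrophage markers moved with these genes. Of 12 markers, 11 had a log2 fold change above 0 against each control group, and 1 was below 0. The lowest value was -0.51 against the batch 1 controls. Against the batch 2 controls it was -0.72, at an unadjusted p under 0.05 in edgeR's test. The summed level of 12 macrophage markers was 342 to 1448 CPM in the batch 1 controls (1448 in replicate 4), 1528 to 2507 CPM in the WD group and 478 to 889.6 CPM in the batch 2 controls. Against the batch 2 controls 9 of the 12 markers rose, where 3.99% of all tested genes did. However, 8 of the 12, Adgre1 and Ptprc among them, are on a list of WD-raised genes that the study chose on these libraries. Their direction is not independent evidence. Against the batch 1 controls 0 of the 12 passed the test, and 9 stood at an unadjusted p under 0.05, all higher. Of all tested genes 3.34% were higher at this p. Adgre1, the F4/80 antigen, had a log2 fold change of 1.94 ± 0.55 (FDR 0.437) against the batch 1 controls and of 2.70 ± 0.23 (FDR 3.95e-06) against the batch 2 controls. Csf1r, the receptor for macrophage colony-stimulating factor, had a log2 fold change of 1.72 ± 0.52 (FDR 0.525) against the batch 1 controls and of 1.96 ± 0.35 (FDR 0.00203) against the batch 2 controls. Ptprc, the leukocyte antigen CD45, had a log2 fold change of 1.47 ± 0.56 (FDR 0.756) against the batch 1 controls and of 1.58 ± 0.29 (FDR 0.00219) against the batch 2 controls. Of the 12 markers only Fcgr1 had a count of 0 in any library (control replicates 4 and 7). Adipocyte markers moved the other way against the batch 2 controls: 6 of 10 fell and 1 rose, where 2.56% and 3.99% of all tested genes did. Against the batch 1 controls 5 of the 10 were above 0 and 5 below, with a median log2 fold change of 0.02, and 0 passed the test. Between the control groups, batch 2 over batch 1, all 10 were above 0 and 0 passed the test. Their median there was 0.97, against -0.0024 for all tested genes. Adipoq, which encodes adiponectin, had a log2 fold change of -0.15 ± 0.51 (FDR 1) against the batch 1 controls and of -1.40 ± 0.19 (FDR 0.000228) against the batch 2 controls. Of 7 stromal markers 3 rose against the batch 2 controls, and 0 of 6 endothelial and 0 of 6 mesothelial markers passed the test there. Lymphocyte markers summed to at most 7.06 CPM in any control and to 3.86 to 9.25 CPM in WD replicates 1, 2, 4 and 5. Only WD replicate 3 was far higher, at 82.3 CPM. In fat as a whole, more cells of a type cannot be told apart from more RNA per cell. The part of macrophage number in the results below was not tested.

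The summed level of the 11 proteases was 1890 to 5293 CPM in the batch 1 controls (mean 3230 ± 1474), 5971 to 8876 CPM in the WD group (7054 ± 1143) and 2378 to 3234 CPM in the batch 2 controls (2815 ± 308). The WD libraries did not overlap either control group. For each CPM of the macrophage markers there were 3.45 to 5.53 CPM of the proteases in the batch 1 controls, 2.68 to 3.91 CPM in the WD group and 3.64 to 5.28 CPM in the batch 2 controls. The WD range overlapped both control ranges and its highest ratio lay below theirs. Of the 12 markers 8 are on the study's list of WD-raised genes, as are Ctss and Ctsk of the proteases. The direction of this ratio is therefore not independent evidence. The 8 glycosidases summed to 189 to 314 CPM in the batch 1 controls, 432 to 475 CPM in the WD group and 149 to 261 CPM in the batch 2 controls, and the WD libraries again did not overlap either control group. The 9 membrane proteins overlapped with the batch 1 controls but not with the batch 2 controls, with 1819 to 2759 CPM in the batch 1 controls, 2527 to 3617 CPM in the WD group and 2160 to 2378 CPM in the batch 2 controls. The 5 proton pump genes did likewise, at 422 to 732 CPM, 599 to 837 CPM and 489 to 581 CPM. These sums have no test.

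**Figure D2:**
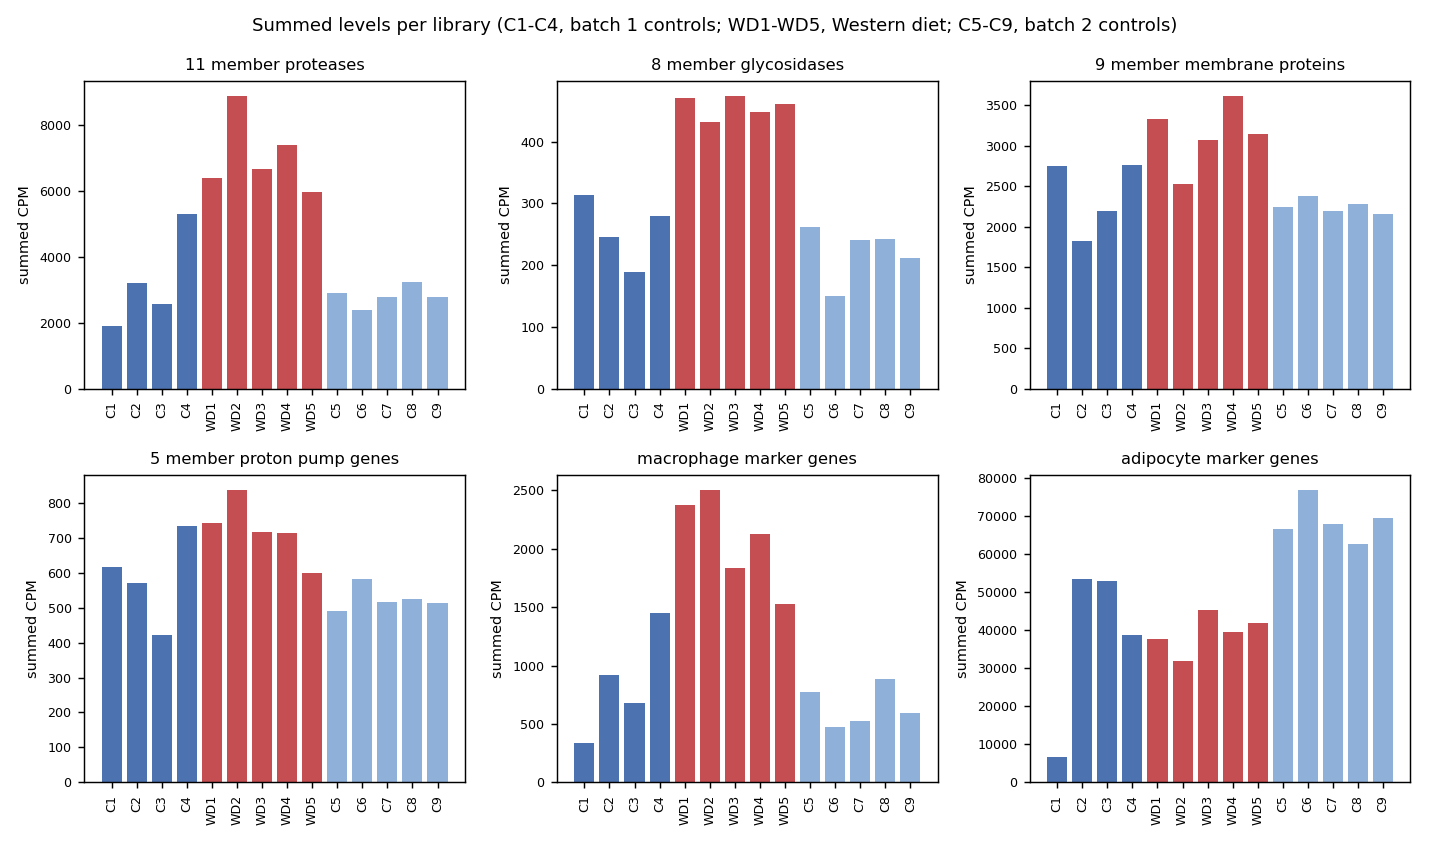
Bars give the summed CPM of each gene list in each of the 14 libraries, dark blue for the batch 1 controls, red for the WD group and light blue for the batch 2 controls. The bars of the proteases and glycosidases in the WD group exceed those of all 9 controls, as do those of the 12 macrophage markers, and adipocyte markers are highest in the batch 2 controls.

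Of the proteases, Ctsd and Ctsz were higher in every WD library than in any control. Of all tested genes 3.01% were so against the batch 1 controls and 4.92% against the batch 2 controls. Ctsd encodes cathepsin D, an aspartic protease and a main endopeptidase of the lysosome, and its counts were 6739, 13363, 8532 and 17037 in the batch 1 controls, 31114, 45530, 33125, 25301 and 28115 in the WD group and 14180, 8583, 13692, 15496 and 11569 in the batch 2 controls, in the order of the replicate numbers. WD replicate 2 lay above the other 4 WD libraries. The level was 965 ± 294 CPM in the batch 1 controls, 2782 ± 1173 CPM in the WD group and 1051 ± 144 CPM in the batch 2 controls (SD, n = 4, 5 and 5, as for all levels below). Ctsd had a log2 fold change of 1.55 ± 0.39 (FDR 0.414) against the batch 1 controls and of 1.41 ± 0.23 (FDR 0.00106) against the batch 2 controls. Ctsz encodes cathepsin Z, a cysteine carboxypeptidase, and its counts were 1169, 1862, 1027 and 2378 in the batch 1 controls, 4401, 4077, 3650, 3638 and 3300 in the WD group and 2021, 1540, 1802, 2022 and 1542 in the batch 2 controls. Ctsz had a log2 fold change of 1.22 ± 0.31 (FDR 0.414) against the batch 1 controls and of 1.10 ± 0.18 (FDR 0.000918) against the batch 2 controls. Its end abuts that of Nelfcd on the opposite strand, with 9 bases shared in the table, and the counts of Nelfcd were 0.478 to 0.875 of those of Ctsz, so reads near the junction may count for both.

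Cathepsin S, a cysteine protease that processes the invariant chain of MHC class II, and cathepsin K, known from osteoclasts, stand on a gene list that the study chose on these same libraries, so their direction is not independent evidence. Ctss counts were 1201, 1571, 2244 and 11877 in the batch 1 controls, 11599, 8141, 9961, 19103 and 7673 in the WD group and 989, 793, 1649, 2758 and 1115 in the batch 2 controls. In batch 1, control replicate 4 lay among the WD libraries, and the other 3 controls lay below them. Ctss had a log2 fold change of 1.48 ± 0.57 (FDR 0.756) against the batch 1 controls and of 2.95 ± 0.32 (FDR 2.33e-05) against the batch 2 controls. Without control replicate 4 its log2 fold change in batch 1 was 2.60 (FDR 0.0165). Ctsk was scarcer and more uneven, with counts of 56, 5, 130 and 697 in the batch 1 controls, 850, 31, 773, 718 and 518 in the WD group and 142, 8, 107, 111 and 22 in the batch 2 controls. WD replicate 2 was as low as the controls, while control replicate 4 was as high as the other WD libraries. Ctsk had a log2 fold change of 1.37 ± 1.01 (FDR 1) against the batch 1 controls and of 2.89 ± 0.69 (FDR 0.0167) against the batch 2 controls. Its log2 fold change was 2.91 (FDR 0.304) in batch 1 without control replicate 4 and 3.18 (FDR 0.00105) against batch 2 without WD replicate 2.

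Cathepsin A, a serine carboxypeptidase that also stabilizes beta-galactosidase and sialidase, could not be measured apart from its neighbour. Ctsa lies on chromosome 2 from 164832872 to 164841032 on the plus strand (mm10), and Pltp, which encodes phospholipid transfer protein, runs towards it on the minus strand from 164839518 to 164857708, so that 1515 bases of their 3′ ends overlap. Ctsa counts were 709, 1674, 1291 and 3856 in the batch 1 controls, 5812, 3798, 4440, 4130 and 3225 in the WD group and 1933, 1111, 1377, 1740 and 913 in the batch 2 controls. Pltp counts were 708, 1668, 1249 and 3853 in the batch 1 controls, 5613, 3763, 4225, 4038 and 2929 in the WD group and 1879, 1107, 1226, 1596 and 872 in the batch 2 controls. The counts of Pltp were 0.890 to 0.999 of those of Ctsa in all 14 libraries, so the values may belong to either gene or to both. Under this limit, Ctsa had a log2 fold change of 1.20 ± 0.38 (FDR 0.533) against the batch 1 controls and of 1.60 ± 0.19 (FDR 6.37e-05) against the batch 2 controls. Leaving Ctsa out changed the median log2 fold change of the members in batch 1 from 0.53 to 0.52. The number of called members went from 20 to 19 against the batch 2 controls and from 6 to 5 against all 9 controls.

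The other 6 proteases split into those that rose against the batch 2 controls and those that did not. Cathepsins B, L and H, broad cysteine proteases, had log2 fold changes of 0.91 ± 0.16 (FDR 0.0021), 1.16 ± 0.24 (FDR 0.00647) and 1.20 ± 0.23 (FDR 0.0033) there, and of 0.79, 0.76 and 0.77 against the batch 1 controls. The end of Ctsb overlaps Fdft1 on the opposite strand by 773 bases, and Fdft1 had 0.0183 to 0.143 of its counts. Legumain, an asparaginyl endopeptidase that trims other cathepsins, differed more between the control groups: Lgmn had a log2 fold change of 0.33 ± 0.50 (FDR 1) against the batch 1 controls and of 2.03 ± 0.42 (FDR 0.00568) against the batch 2 controls, with counts of 249, 419, 368 and 1970 in the batch 1 controls. Without control replicate 4 its log2 fold change in batch 1 was 1.24 (FDR 0.206). Cathepsin C, which activates granule proteases, and the tripeptidyl peptidase Tpp1 did not pass either test. Ctsc had a log2 fold change of 0.27 ± 0.43 (FDR 1) against the batch 1 controls and of 0.39 ± 0.28 (FDR 0.553) against the batch 2 controls, and Tpp1 had a log2 fold change of 0.39 ± 0.50 (FDR 1) against the batch 1 controls and of 0.17 ± 0.31 (FDR 0.877) against the batch 2 controls. In both, WD replicate 2 was the lowest WD library, at 483 counts for Ctsc (the others 1422 to 2411) and 250 for Tpp1 (the others 1375 to 1550). Without it the log2 fold changes against batch 2 were 0.59 (FDR 0.0963) for Ctsc and 0.41 (FDR 0.185) for Tpp1.

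**Figure D3:**
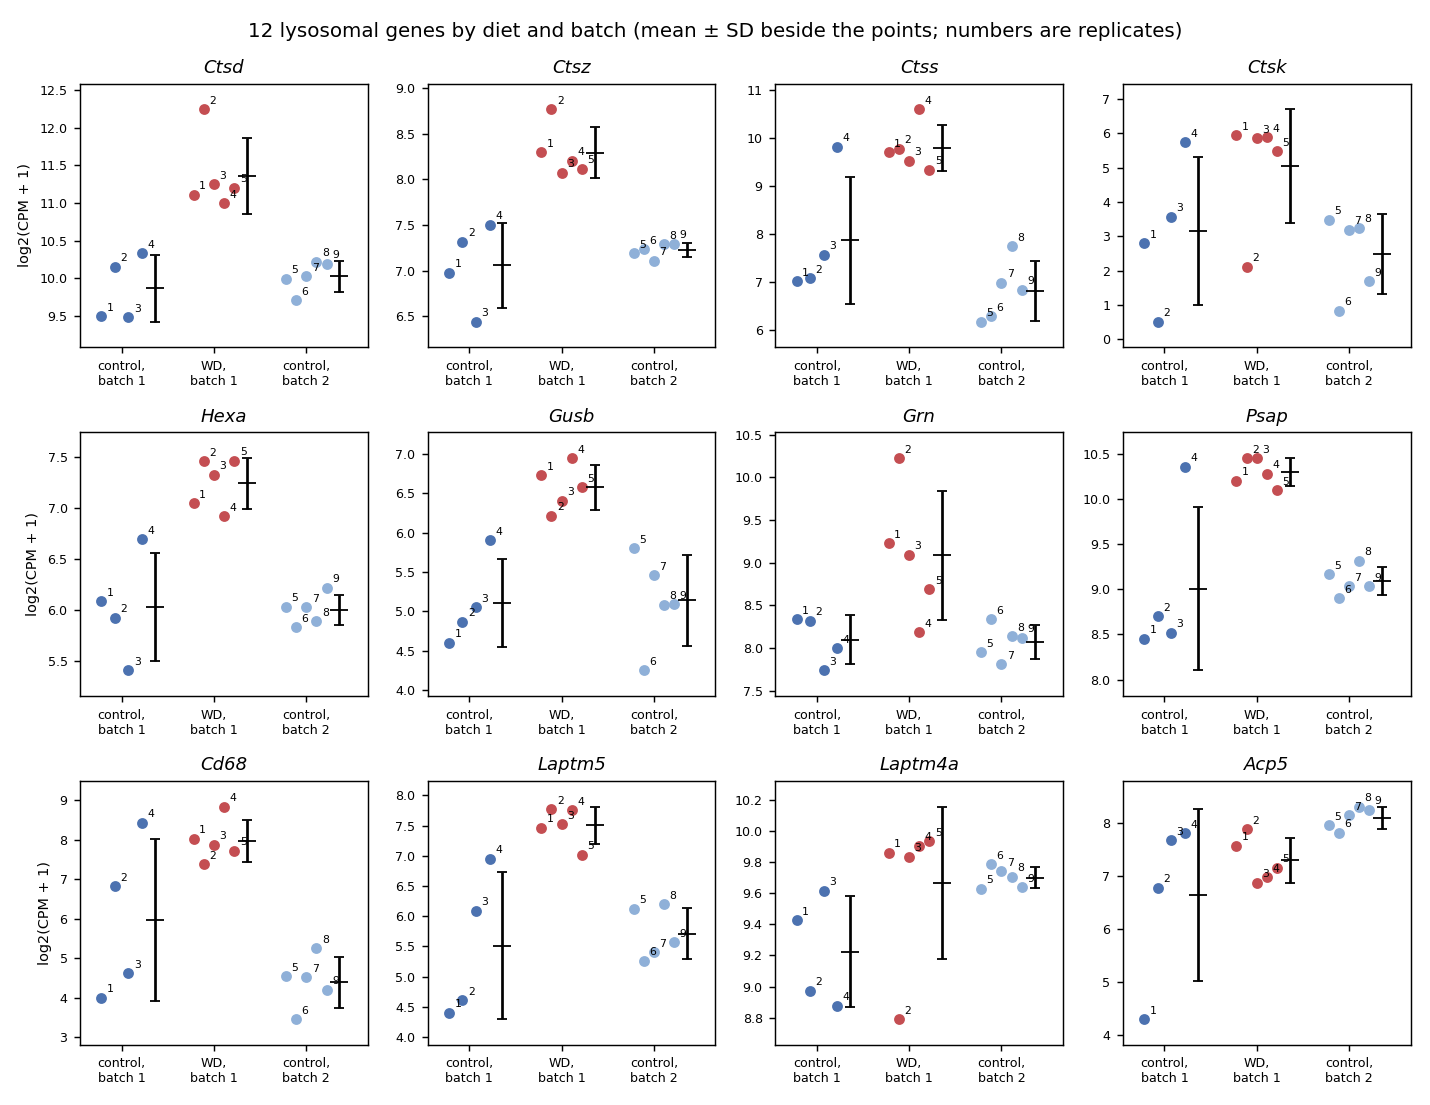
Points show log2(CPM + 1) of 12 of the genes in each library, by diet and batch, with the replicate number beside each point and the group mean ± SD to the right. Ctsd, Ctsz, Hexa, Gusb and Laptm5 do not overlap between the WD group and the 9 controls, whereas control replicate 4 reaches the WD level for Ctss, Ctsk, Psap and Cd68, and WD replicate 2 lies apart for Ctsk and Laptm4a.

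Among the glycosidases, which remove sugars from glycoproteins, glycolipids and glycosaminoglycans, beta-glucuronidase (Gusb) and the alpha subunit of beta-hexosaminidase (Hexa) were higher in every WD library than in any control. The shares of all tested genes were 3.01% against the batch 1 controls and 4.92% against the batch 2 controls. Gusb counts were 218, 332, 386 and 777 in the batch 1 controls, 1472, 684, 1140, 1513 and 1126 in the WD group and 763, 186, 565, 429 and 328 in the batch 2 controls. Its level was 35.7 ± 15.9 CPM in the batch 1 controls, 95.6 ± 19 CPM in the WD group and 36.4 ± 13.6 CPM in the batch 2 controls. Gusb had a log2 fold change of 1.44 ± 0.35 (FDR 0.414) against the batch 1 controls and of 1.39 ± 0.27 (FDR 0.00372) against the batch 2 controls. Hexa counts were 625, 701, 495 and 1353 in the batch 1 controls, 1845, 1640, 2177, 1487 and 2099 in the WD group and 899, 577, 844, 758 and 727 in the batch 2 controls. The level of Hexa was 67.6 ± 25.6 CPM in the batch 1 controls, 153 ± 25.6 CPM in the WD group and 63.3 ± 6.81 CPM in the batch 2 controls. Hexa had a log2 fold change of 1.19 ± 0.32 (FDR 0.414) against the batch 1 controls and of 1.27 ± 0.19 (FDR 0.000478) against the batch 2 controls.

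Man2b1, the lysosomal alpha-mannosidase, had counts of 557, 365, 362 and 16 in the batch 1 controls, 1149, 675, 1099, 1012 and 691 in the WD group and 991, 207, 400, 778 and 239 in the batch 2 controls. Control replicate 4 was nearly without it, while control replicates 5 and 8 reached the WD range. Man2b1 had a log2 fold change of 1.28 ± 0.69 (FDR 1) against the batch 1 controls and of 0.86 ± 0.32 (FDR 0.137) against the batch 2 controls, and in batch 1 without control replicate 4 it was 0.86 (FDR 0.401). Gla, alpha-galactosidase A, and Glb1, beta-galactosidase, rose against the batch 2 controls, with log2 fold changes of 1.73 ± 0.50 (FDR 0.0472) and 1.22 ± 0.33 (FDR 0.0311). In batch 1 these were 0.94 ± 0.84 and 0.40 ± 0.47, and Gla stood at 2.26 (FDR 0.227) there without control replicate 4. Glb1 shares 10107 bases with Tmppe on its own strand, whose counts were 0.0139 to 1.77 of its own. Acid alpha-glucosidase (Gaa) and the sialidase Neu1 did not pass either test, with log2 fold changes of 0.13 and -0.44 in batch 1 and 0.40 and 0.21 against batch 2. Beta-mannosidase (Manba) was near the limit of detection, with 0 to 88 counts per library, 0 in 5 of them, and did not pass the filter against the batch 2 controls.

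Of the other soluble proteins, prosaposin and progranulin had the largest differences. Psap, the precursor of the saposins that present lipids to their hydrolases, had counts of 3271, 4872, 4379 and 17324 in the batch 1 controls, 16558, 13132, 19059, 15370 and 13051 in the WD group and 7992, 4910, 6896, 8282 and 5183 in the batch 2 controls. Apart from control replicate 4, which lay within the WD range, no control reached the WD group. Psap had a log2 fold change of 1.08 ± 0.42 (FDR 0.781) against the batch 1 controls and of 1.21 ± 0.16 (FDR 0.000183) against the batch 2 controls. Without control replicate 4 its log2 fold change in batch 1 was 1.72 (FDR 0.0431). Progranulin, a secreted and lysosomal growth factor, is on the gene list that the study chose on these libraries. Grn counts were 3014, 3739, 2541 and 3364 in the batch 1 controls, 8416, 11211, 7429, 3586 and 4914 in the WD group and 3441, 3323, 2935, 3648 and 2742 in the batch 2 controls. WD replicate 2 was the highest, and WD replicate 4 lay within the range of the controls. Grn had a log2 fold change of 1.15 ± 0.41 (FDR 0.636) against the batch 1 controls and of 1.17 ± 0.29 (FDR 0.0207) against the batch 2 controls. Without WD replicate 2 these were 0.74 (FDR 1) and 0.77 (FDR 0.0187).

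The phosphatases moved in opposite directions against the batch 2 controls. Acp2, the lysosomal acid phosphatase, had counts of 374, 620, 640 and 2394 in the batch 1 controls, 1592, 1652, 1238, 1401 and 1031 in the WD group and 945, 472, 800, 920 and 794 in the batch 2 controls, and it had a log2 fold change of 0.53 ± 0.44 (FDR 1) against the batch 1 controls and of 0.83 ± 0.23 (FDR 0.039) against the batch 2 controls. Without control replicate 4, its highest library, its log2 fold change in batch 1 was 1.23 (FDR 0.165). Its 3′ part overlaps Ddb2 on the opposite strand over 2517 bases, and the counts of Ddb2 were 0.00212 to 0.244 of those of Acp2. Acp5, the tartrate-resistant acid phosphatase of osteoclasts and macrophages, was singled out after its values were seen, as the 1 gene that fell. Its counts were 174, 1277, 2425 and 2946 in the batch 1 controls, 2665, 2200, 1585, 1548 and 1683 in the WD group and 3462, 2315, 3700, 4101 and 2996 in the batch 2 controls. Control replicate 1 was far below the others, and the WD group overlapped both sets of controls. Acp5 had a log2 fold change of 0.25 ± 0.52 (FDR 1) against the batch 1 controls and of -0.77 ± 0.21 (FDR 0.0374) against the batch 2 controls. Without control replicate 1 the value in batch 1 was -0.11 (FDR 1). Its log2 fold change between the control groups, batch 2 over batch 1, was 1.00 ± 0.52 (FDR 0.741), with all batch 2 controls above all batch 1 controls.

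Creg1, a glycoprotein of the endosome and lysosome, rose against the batch 2 controls (1.04 ± 0.17 on the log2 scale, FDR 0.00106) and did not pass the test against the batch 1 controls (0.18 ± 0.34, FDR 1). Acid ceramidase (Asah1) had log2 fold changes of 0.33 ± 0.44 and 0.91 ± 0.36, and palmitoyl-protein thioesterase (Ppt1) of 0.07 ± 0.44 and 0.31 ± 0.30, in the same order, and neither passed a test. The end of Ppt1 overlaps that of Cap1 on the opposite strand by 128 bases, and Cap1 had 0.332 to 0.806 of its counts.

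Of the 9 membrane proteins, Cd68 and Laptm5, both known from immune cells, rose against the batch 2 controls, and the other 7 did not pass either edgeR test with all libraries. Cd68, or macrosialin, a glycoprotein of macrophage lysosomes on the gene list that the study chose on these libraries, had counts of 141, 1324, 282 and 4520 in the batch 1 controls, 3647, 1556, 3173, 5621 and 2498 in the WD group and 312, 103, 288, 482 and 173 in the batch 2 controls. Against batch 2 every WD library was higher, while in batch 1 control replicate 4 exceeded 4 of the 5 WD libraries. The level was 123 ± 152 CPM in the batch 1 controls, 264 ± 111 CPM in the WD group and 21.8 ± 9.89 CPM in the batch 2 controls. Cd68 had a log2 fold change of 1.14 ± 0.73 (FDR 1) against the batch 1 controls and of 3.60 ± 0.34 (FDR 7.63e-06) against the batch 2 controls, the largest fold change of the 40 genes tested against batch 2. Without control replicate 4 its log2 fold change in batch 1 was 2.38 (FDR 0.155). Between the control groups, batch 2 over batch 1, its log2 fold change was -2.48 ± 0.76 (FDR 0.458). Laptm5, a lysosomal protein of blood cells that lowers antigen receptors, had counts of 188, 275, 803 and 1622 in the batch 1 controls, 2470, 2033, 2484, 2665 and 1530 in the WD group and 957, 386, 543, 943 and 459 in the batch 2 controls, and the WD group lay above all 9 controls in CPM. Laptm5 had a log2 fold change of 1.68 ± 0.49 (FDR 0.486) against the batch 1 controls and of 1.79 ± 0.24 (FDR 0.000154) against the batch 2 controls.

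Lamp1, a main glycoprotein of the lysosomal membrane, had counts of 6393, 4127, 5124 and 6633 in the batch 1 controls, 9680, 8338, 7806, 7742 and 8656 in the WD group and 7553, 4323, 7457, 7227 and 5206 in the batch 2 controls, and it had a log2 fold change of 0.52 ± 0.31 (FDR 1) against the batch 1 controls and of 0.43 ± 0.17 (FDR 0.183) against the batch 2 controls. Laptm4a, a relative of Laptm5 found in most cells, had counts of 6432, 5892, 9375 and 6198 in the batch 1 controls, 13052, 4134, 12397, 11845 and 11634 in the WD group and 11007, 9092, 11221, 10833 and 7860 in the batch 2 controls. It was lowest in WD replicate 2, and the other 4 WD libraries lay within a narrow range. Laptm4a had a log2 fold change of 0.47 ± 0.34 (FDR 1) against the batch 1 controls and of 0.02 ± 0.20 (FDR 0.981) against the batch 2 controls, and without WD replicate 2 these were 0.63 (FDR 1) and 0.18 (FDR 0.512). Lamp2, which also serves in autophagy, had a log2 fold change of -0.15 ± 0.30 (FDR 1) against the batch 1 controls and of 0.00 ± 0.18 (FDR 0.999) against the batch 2 controls. The tetraspanin Cd63 had a log2 fold change of 0.14 ± 0.32 (FDR 1) against the batch 1 controls and of 0.69 ± 0.21 (FDR 0.0631) against the batch 2 controls, where it passed with DESeq2 (FDR 0.0133), limma-voom (FDR 0.0389) and a minimum of 1 CPM in all libraries (FDR 0.0359). Scarb2, the receptor that brings beta-glucocerebrosidase to the lysosome, had a log2 fold change of 0.60 ± 0.45 (FDR 1) against the batch 1 controls and of 0.37 ± 0.25 (FDR 0.525) against the batch 2 controls. Cln3, whose loss causes a storage disease, and the cation channel Mcoln1 were scarce, with 2 to 325 and 0 to 268 counts per library, and neither passed a test. Their standard errors in batch 1 were 1.11 and 1.28 on the log2 scale.

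None of the proton pump genes passed edgeR's test with all libraries in any comparison. Atp6v1b2, a subunit of the cytosolic part that holds the nucleotide-binding sites, had counts of 613, 880, 1084 and 1806 in the batch 1 controls, 2342, 449, 2755, 2695 and 1938 in the WD group and 1250, 1067, 1468, 1256 and 894 in the batch 2 controls. WD replicate 2 lay below all 9 controls in CPM, and the other 4 WD libraries lay above all 9. Atp6v1b2 had a log2 fold change of 0.81 ± 0.41 (FDR 1) against the batch 1 controls and of 0.70 ± 0.29 (FDR 0.208) against the batch 2 controls. Without WD replicate 2 these were 1.04 (FDR 0.595) and 0.93 (FDR 0.00124). Atp6v0d1, of the membrane part, had counts of 406, 741, 364 and 362 in the batch 1 controls, 865, 544, 412, 1089 and 585 in the WD group and 1021, 819, 864, 777 and 663 in the batch 2 controls, and it had a log2 fold change of 0.48 ± 0.40 (FDR 1) against the batch 1 controls and of -0.27 ± 0.25 (FDR 0.706) against the batch 2 controls. The accessory subunit Atp6ap1 had the highest mean level of the 5, with counts of 3895, 3670, 1827 and 923 in the batch 1 controls, 3607, 4626, 3418, 1583 and 2296 in the WD group and 2583, 2585, 1904, 2555 and 2171 in the batch 2 controls. Control replicate 4 was the lowest, WD replicate 2 the highest, and Atp6ap1 had a log2 fold change of 0.15 ± 0.50 (FDR 1) against the batch 1 controls and of 0.41 ± 0.28 (FDR 0.541) against the batch 2 controls. In batch 1 it was -0.18 (FDR 0.981) without control replicate 4 and -0.21 (FDR 1) without WD replicate 2. The catalytic subunit Atp6v1a had a log2 fold change of 0.14 ± 0.44 (FDR 1) against the batch 1 controls and of 0.57 ± 0.18 (FDR 0.0707) against the batch 2 controls, where it passed with DESeq2 (FDR 0.0172) and when 1 CPM was required in all libraries (FDR 0.0452). Tcirg1, the a3 subunit known from osteoclasts, had counts of 0, 36, 0 and 0 in the batch 1 controls, 75, 203, 146, 1 and 42 in the WD group and 2, 0, 0, 27 and 57 in the batch 2 controls, and no fold change is given because 3 of 4 batch 1 controls were at 0.

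Of the transcription factors, Tfec was at 0 in most libraries, while Tfeb was close to the limit of detection only in some batch 1 libraries. Tfeb counts were 27, 0, 8 and 0 in the batch 1 controls, 74, 128, 111, 1 and 9 in the WD group and 80, 161, 69, 71 and 66 in the batch 2 controls, so that the batch 2 controls lay above the batch 1 controls while the WD libraries spread over the range of both. Against batch 2 its log2 fold change was -0.47 ± 0.91 (FDR 0.89). Tfec, a relative found in myeloid cells, had counts of 0, 0, 0 and 159 in the batch 1 controls, 8, 0, 0, 22 and 33 in the WD group and 37, 0, 0, 8 and 0 in the batch 2 controls. It did not pass the filter on low counts in any comparison, and control replicate 4 held most of its counts. Below about 3 counts, or 0.219 to 0.292 CPM in these libraries, a level could not be shown.

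**Figure D4:**
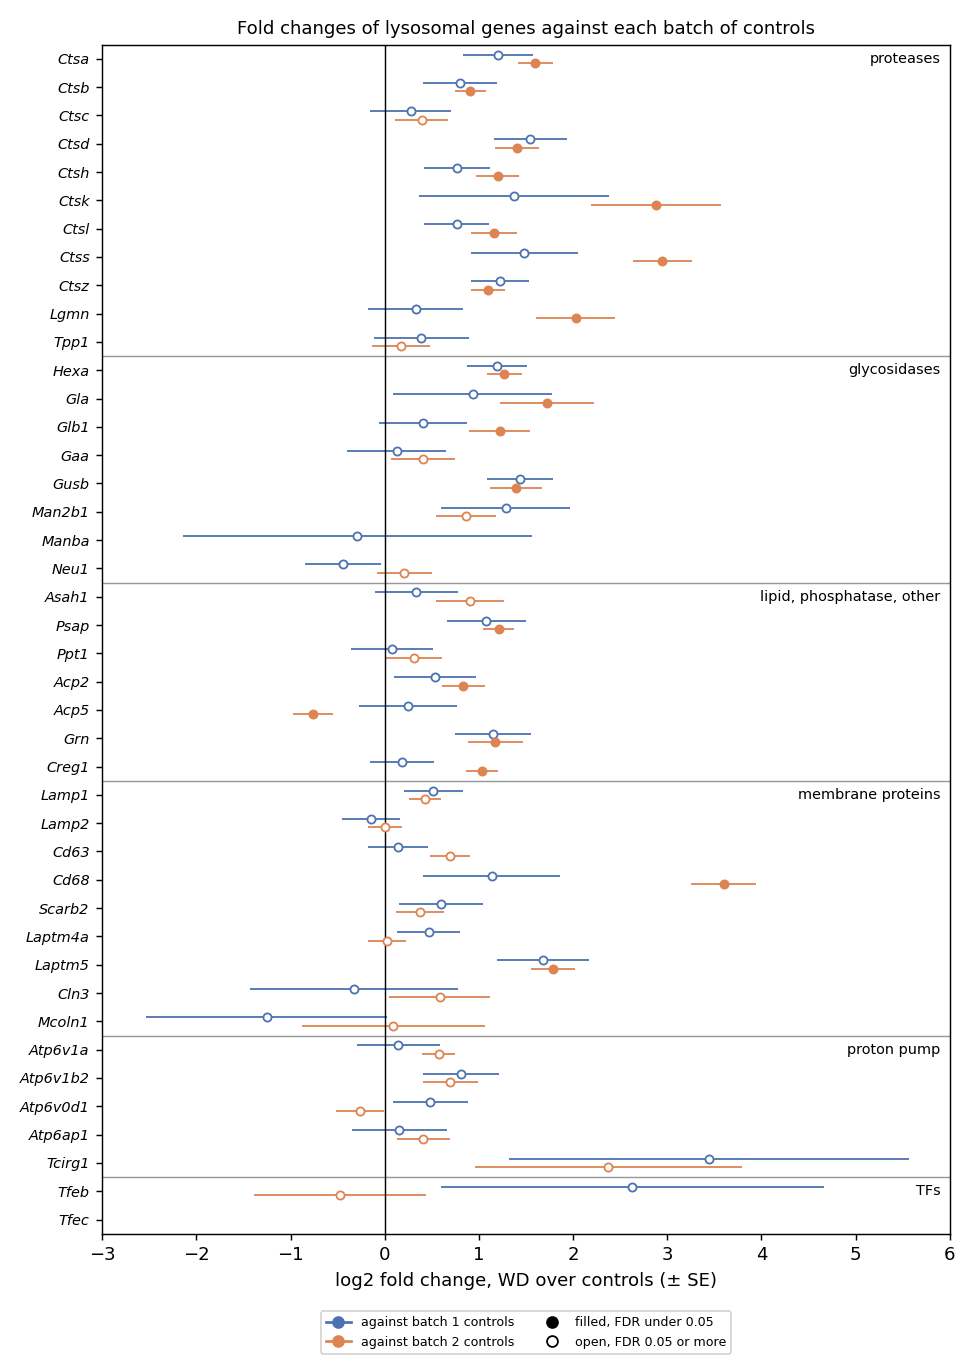
Log2 fold changes (± SE) of the tested genes in the WD group are drawn for each gene, by role, against the batch 1 controls (blue) and the batch 2 controls (orange), with filled points at an FDR under 0.05. The 20 filled points all belong to the batch 2 comparison, Acp5 is the only one left of 0, Tfec was not tested, and Manba was not tested against batch 2.

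The controls of the 2 batches were also set against each other. Of 39 tested genes 0 had an FDR under 0.05 in edgeR's test (0% of 12106 tested genes). DESeq2 and limma-voom called 0 of the 39 as well, where DESeq2 called 0.937% of its genes and limma-voom 0%. At an unadjusted p under 0.05, Cd68, Creg1, Lgmn and Ctss were lower and Atp6v0d1 was higher in batch 2, against 7.44% of all tested genes. The median log2 fold change, batch 2 over batch 1, was -0.25, and without control replicate 4 it was 0.09. The controls of batch 1 were also more uneven: the median SD of log2(CPM + 1) over the 42 genes was 0.90 in the batch 1 controls, 0.53 without control replicate 4, 0.43 in the WD group and 0.31 in the batch 2 controls. The other genes with a mean of at least 1 CPM had medians of 1.29, 0.87, 0.68 and 0.49.

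Of the 20 genes called against the batch 2 controls, 14 stayed called in all 17 alternatives. Acp2 lost its call without WD replicate 1 or 2 or control replicate 5, 6, 7 or 8, and also without WD replicate 4. Acp5 lost it without any one of WD replicates 1, 3, 4 and 5 and control replicates 5, 7, 8 and 9. Gla lost it without any one of WD replicates 1, 3 and 4 and control replicates 5, 6, 7 and 9, and Glb1 without any one of WD replicates 4 and 5 and control replicates 5, 6, 8 and 9. Grn lost it without control replicate 5 or 7, and Ctsk without WD replicate 4. Gla and Ctsk also lost it under other settings. Of genes not called, Cd63 and Atp6v1a passed under the settings given with them. Cd63 also passed without WD replicate 2 or control replicate 6, Atp6v1a and Atp6v1b2 without WD replicate 2, and Man2b1 without control replicate 5.

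A list of 72 other lysosomal genes was described in the same way. Against the batch 1 controls 0 of 71 tested passed, with 4 higher and 1 lower at an unadjusted p under 0.05. Of all tested genes 3.34% were higher at this p. Against the batch 2 controls 10 rose and 1 fell (15.5% of 71, beside 6.55% of all tested genes), and the median log2 fold change was 0.20. The hydrolases Lipa, acid lipase (2.40 ± 0.22, FDR 6.11e-06), Dnase2a, which degrades the DNA of engulfed cells (2.39 ± 0.36, FDR 0.000475), Pld3, Scpep1 and Dpp7, and the cholesterol carrier Npc2 rose, as did Slc11a1, a metal transporter of phagosomes, and Litaf. Lipa, Pld3 and Slc11a1 are also on the gene list that the study chose. Of 12 other proton pump genes 2 rose. Atp6v0d2, a subunit known from osteoclasts and macrophages, had counts of 657, 318, 95 and 2407 in the batch 1 controls, 1671, 897, 2737, 2936 and 1902 in the WD group and 71, 0, 105, 77 and 12 in the batch 2 controls, and the batch 1 controls overlapped the WD group. Its log2 fold change against batch 2 was 5.30 ± 0.66 (FDR 0.000121), and it was 1.20 (FDR 1) in batch 1. Atp6v0a1 had counts of 661, 938, 747 and 573 in the batch 1 controls, 2442, 2278, 1799, 1549 and 1616 in the WD group and 1006, 432, 904, 1276 and 499 in the batch 2 controls, with the WD group above all 9 controls. Sort1, the sorting receptor sortilin, fell by 0.90 on the log2 scale (FDR 0.0155). Against all 9 controls Lipa (2.17 ± 0.30, FDR 0.00208) and Atp6v0a1 (1.31 ± 0.24, FDR 0.0109) rose (2.82% of 71, beside 0.569% of all tested genes).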

How the data were processed

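The members and gene lists were chosen with earlier results of these data known. The authors aligned QuantSeq reads with Bowtie2 to mm10 (the build of the submitters' processing notes), counted reads per gene with Bedtools, both uniquely and multiply aligned, and deposited the raw counts. A deposited log2 value for each count, normalized by the authors in edgeR (TMM, then CPM, plus 1), is used here for the heatmap. Versions and the use of strand in counting are not given in the sources used here. Because multiple alignments were counted, near-identical genes may share reads. Overlapping genes may also share the reads of their common bases, and those on opposite strands may do so if strand was not used.

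The counts were tested with edgeR 4.0.16 in R 4.3.3 by the robust quasi-likelihood test, with TMM factors and filterByExpr, and genes were called at an FDR under 0.05 over all tested genes. CPM values use TMM factors over the 14 libraries. Fold changes and standard errors are on the log2 scale. Alternatives used DESeq2 1.42.0, limma 3.58.1, other factors, other filters, a replicate block, batch as a covariate and libraries left out; an alternative without robust estimation and another without Ctsa were chosen after seeing the data. The scripts were tested on simulated data. Libraries held 10278970 to 13712254 counts. Reads carry no molecular identifiers that the sources mention, so depth covers counting error only. Libraries of the same group differed by more than sampling noise in every pair.

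Values per library are given for the members of lowest unadjusted p in batch 1 in each role (up to 3), the 1 of highest mean CPM in each role, Cd68, Ctsk, Ctss, Grn, Tfeb, Tfec, and Ctsa with Pltp. Other genes with such values (Acp5, Atp6v0d2 and Atp6v0a1) were picked after their values were seen. Antibody array, brain and plasma measurements were not analysed here.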

Additional observations from a re-analysis of the deposited data

Results flagged for a closer look

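In 66 groups of 4 or 5 libraries (22 genes with values per library, in 3 groups), 9 values lay far from the others of their group by Dixon's ratio of gap to range. For independent, normally distributed values chance gives about 1 in 20 groups, or 3.3. Genes of the same libraries are not independent and low counts are not normally distributed, so 9 against 3.3 is not a test. All values are log2(CPM + 1). Atp6v1b2 stood at 5.61 in WD replicate 2, with the other WD libraries from 7.35 to 7.77. Ctsd stood at 12.25 in WD replicate 2, with the other WD libraries from 10.998 to 11.25. Ctsk stood at 2.11 in WD replicate 2, with the other WD libraries from 5.47 to 5.94. Laptm4a stood at 8.79 in WD replicate 2, with the other WD libraries from 9.83 to 9.93. Tcirg1 stood at 2.02 in control replicate 2, with the other batch 1 controls at 0. Psap stood at 10.36 in control replicate 4, with the other batch 1 controls from 8.45 to 8.70. Tfec stood at 3.70 in control replicate 4, with the other batch 1 controls at 0. Where all the others are at 0, as for Tcirg1 and Tfec, the ratio is 1 whatever the value. Lamp1 stood at 8.72 in control replicate 6, with the other batch 2 controls from 9.04 to 9.15. Tfeb stood at 4.05 in control replicate 6, with the other batch 2 controls from 2.64 to 2.94. WD replicate 2 accounts for 4 of the 9, low for Atp6v1b2, Ctsk and Laptm4a and high for Ctsd, and control replicate 4 for 2.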

How the results depend on the processing

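Against the batch 1 controls 0 members were called under all alternatives but DESeq2 (2), leaving out control replicate 4 (5) and leaving out control replicates 1 and 4 together (6, with a median log2 fold change of 1.08 against 0.53). With single libraries left out, the count ranged from 0 to 5 there, from 15 to 22 against the batch 2 controls (20 as reported) and from 4 to 16 against all 9 controls (6 as reported). The share of all tested genes called in these runs moved too, from 0% to 0.442%, from 4.8% to 8.11% and from 0.247% to 2.29%, in the same order. Against all 9 controls DESeq2 gave 12, limma-voom 10, leaving out control replicate 1 11, control replicate 4 16 and both 20. Against the batch 2 controls Gla lost its call with library totals alone (FDR 0.0611), limma-voom (0.0737) and no robust estimation (0.0526), and Ctsk with no filter (0.0712) and limma-voom (0.206). Calls were gained there by Cd63 with DESeq2, limma-voom and a CPM of at least 1, and by Atp6v1a with DESeq2 and a CPM of at least 1. Between the control groups the count was 0 under all alternatives run. The replicate block in batch 1 gave 0 calls and a median of 0.80. Same-numbered control and WD libraries correlated at 0.03, 0.04, 0.09 and 0.10 in their deviations from the group means, and 2 of the 4 controls correlated best with their own number. Libraries of different numbers correlated at -0.083 to 0.11. Correlations this small cannot show whether same-numbered libraries were paired. limma-voom and the block moved the median of all tested genes in batch 1 from 0.03 to 0.42 and 0.29.

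Log2 fold changes near 0 changed sign for members that were not called. In batch 1 these were Ppt1 (-0.013 with a CPM of at least 1, -0.021 with DESeq2, -0.056 with the block), Manba (0.47 with limma-voom), Cln3 (1.36 with limma-voom, 1.08 with the block, 3.10 without control replicates 1 and 4) and Lamp2 (0.22 without both), and against batch 2 Lamp2 (-0.0093 with no filter, -0.010 with limma-voom), Laptm4a (-0.024 with limma-voom) and Mcoln1 (-1.08 with limma-voom). With single libraries left out, the ranges in batch 1 were -0.16 to 0.44 (Ppt1), -0.70 to 1.09 (Manba), -0.76 to 0.56 (Cln3), -0.098 to 0.94 (Atp6v1a), -0.11 to 0.54 (Acp5), -0.045 to 0.55 (Creg1), -0.15 to 0.63 (Gaa), -0.21 to 0.59 (Atp6ap1) and -0.35 to 0.033 (Lamp2). Against batch 2 they were -0.063 to 0.11 (Lamp2), -0.038 to 0.18 (Laptm4a) and -0.49 to 0.41 (Mcoln1). The cause of these changes was not tested beyond the libraries named. Low counts limit Tfec, Tfeb, Tcirg1, Manba, Mcoln1, Cln3 and Ctsk, which had under 10 counts in at least 1 library. Whether depth set these low counts was not tested. Control replicate 4 had 12334105 total counts on 7999 genes, and WD replicate 4 had 12781448 on 10903.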
